A study of Mus musculus with 6 samples.

Results

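The 10 genes described here form the transcriptional core of the ATF4-CHOP stress program and its feedback: Atf4, Ddit3 (which encodes CHOP), Trib3, Chac1, Atf3, Atf5, Nupr1, Cebpb, Cebpg and Ppp1r15a. They were taken from the 55335 genes of the count tables by symbol, through the GENCODE M21 annotation. The set was put together after the IFNγR1KO and scrambled control libraries had been compared, and its members were selected on that contrast. Their differences between the groups are therefore given as descriptions, without a test. The study, on the mouse melanoma line B16-BL6, asked by RNA-Seq which pathways differ in cells without the IFN-γ receptor chain IFNγR1. Both groups were B16-BL6 cells transduced with the lentiCRISPR v2 plasmid, which carries Cas9 and a guide, and selected with puromycin, and no further agent was named for these cultures. The scrambled control group (n = 3, labelled control 1 to 3, genotype WT) received a guide that targets GFP. The IFNγR1KO group (n = 3, labelled IFNγR1KO 10 to 12) received guides against the first exon of Ifngr1 and was grown from single clones chosen by their PD-L1 response. The study describes seeding at about 1 cell per well for cells with either kind of guide, so the scrambled control may be clonal too. Whether the 3 libraries of a group come from 1 clone is not stated in the sources used here. A property of a clone, in either group, and an effect of the knockout therefore cannot be told apart. The p-values below measure only the spread between cultures.

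Libraries held 9402640 to 10579788 counts on genes in scrambled control and 6698956 to 7409479 in IFNγR1KO cells, and 13642 genes passed the filter on low counts. Levels are given as CPM, counts scaled to library size with TMM factors, by which 1 count was worth 0.0966 to 0.109 CPM in scrambled control and 0.135 to 0.142 CPM in IFNγR1KO libraries. Ifngr1 itself was counted in all 6 libraries, with 15.9 ± 1.35 CPM for scrambled control and 11.5 ± 0.0901 CPM for IFNγR1KO cells (SD, n = 3 each), a log2 difference of -0.47 (standard error, SE, 0.16, adjusted p = 0.0729 in the quasi-likelihood test of edgeR, Benjamini-Hochberg adjusted). The study judged the knockout by IFNγR1 protein in flow cytometry, not by this RNA. It also reported no rise of phosphorylated JAK2, Irf1 or PD-L1 after IFN-γ in IFNγR1KO cells. All 7 melanocyte markers looked up (Mitf, Sox10, Pmel, Tyr, Tyrp1, Dct and Mlana) were expressed, and none of them passed the test. Of 10 markers of immune, stromal, endothelial and epithelial cells, Cd3e, Adgre1 and Cdh5 had no count in any library, and of the 3 that could be tested, the collagen genes Col1a1 and Col1a2 rose, and Pdgfra was at 3.60 ± 0.481 and 2.095 ± 0.327 CPM (SD, n = 3 each, log2 difference -0.77, adjusted p = 0.0866 in edgeR). The summed level of the list was 57.3 to 76.3 CPM in scrambled control and 129 to 133 CPM in IFNγR1KO libraries. Most of that sum was Col1a2, at 58.9 ± 9.26 and 124 ± 1.24 CPM (SD, n = 3 each, adjusted p = 0.000476 in edgeR). The part of these markers in the results below was not tested. In RNA from whole cultures, more cells with a transcript and more transcript per cell cannot be told apart.

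ATF4 is a basic leucine zipper (bZIP) transcription factor whose protein is made when eIF2α is phosphorylated by one of the kinases PERK, GCN2, PKR or HRI, the integrated stress response. It activates genes of amino acid uptake and synthesis and, under prolonged stress, the gene of CHOP, a C/EBP-family factor linked to cell death. Other members are bZIP partners (ATF3, ATF5, C/EBPβ and C/EBPγ), brakes on the pathway (TRIB3, which binds ATF4 and CHOP, and GADD34, the product of Ppp1r15a, which directs a phosphatase to eIF2α) and further products (CHAC1, which degrades glutathione, and NUPR1, a small stress-induced chromatin protein). Much of the control of ATF4 is in translation, so its RNA level is not its protein level.

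All 10 genes were higher in IFNγR1KO cells, and in each of them the lowest IFNγR1KO library lay above the highest scrambled control library. Among all tested genes, 16% had groups that did not overlap in this direction. All 10 also had an adjusted p under 0.05 (7.73% of tested genes were higher by that rule) and a log2 fold change over 1 with it (3.25%). These counts are what the choice of members used, and nothing is read from them. The log2 fold changes ran from 1.13 for Atf4 to 4.21 for Nupr1, with a median of 2.30, where the median of all tested genes was -0.0015. Every member passed the filter through both groups, since the lowest count of any of them in a scrambled control library was 43, for Atf3. Together the 10 genes took 0.0801 ± 0.00713% (SD, n = 3) of the counts on genes in scrambled control and 0.307 ± 0.00625% (SD, n = 3) in IFNγR1KO cells, and their summed level went from 818 ± 99.6 to 3031 ± 156 CPM (SD, n = 3 each), a ratio of 3.70.

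**Figure D1:**
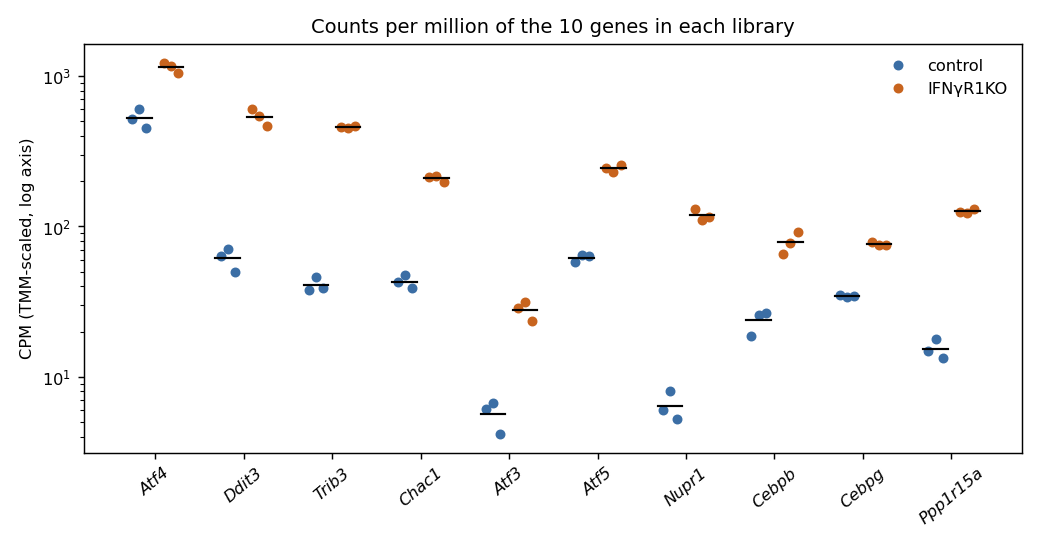
CPM of each of the 10 genes (log axis) in the 3 scrambled control libraries (blue) and the 3 IFNγR1KO libraries (orange), with the group mean as a black bar. For every gene the 3 orange points lie above the 3 blue ones, from a ratio of nearest points of 1.73 for Atf4 to 13.6 for Nupr1.

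Atf4 (ENSMUSG00000042406.8, chr15:80255184-80257541 of GRCm38, plus strand) had the smallest change of the set, together with Cebpg. It was at 518, 605 and 453 CPM in the scrambled control libraries and at 1231, 1171 and 1050 CPM in the IFNγR1KO libraries. The scrambled control values were spread over more of their own mean than the IFNγR1KO values were (coefficient of variation 14.5% and 8.04%), and the nearest libraries of the groups differed by a ratio of 1.73. Its log2 fold change was 1.13 (SE 0.16). Leaving out 1 library at a time gave 1.03 to 1.24.

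Ddit3 (ENSMUSG00000025408.15, chr10:127290774-127296288, plus strand), the gene of CHOP, changed far more than Atf4. It was at 63.8, 70.4 and 50.1 CPM in scrambled control and at 608, 545 and 463 CPM in IFNγR1KO libraries. The ratio of the nearest libraries was 6.58, and the log2 fold change was 3.13 (SE 0.18). Ddit3 and Atf4 ranked the libraries alike. Both were highest in library 2 and lowest in library 3 of scrambled control, and highest in library 10 and lowest in library 12 of IFNγR1KO cells. Among the melanocyte markers, Mlana alone had this order too, so the order is not particular to this pair. A second identifier that carries the symbol Ddit3 (ENSMUSG00000116429.1) lies within the exons of the first and had 0 counts in every library. It covers 6.13% of the exonic bases of Ddit3, and reads that fall there would be counted for neither gene.

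The 4 bZIP partners covered a wide range of levels and changes. Atf3 (ENSMUSG00000026628.13, chr1:191170296-191218039, minus strand), a factor induced early in many kinds of stress, was at 6.08, 6.67 and 4.16 CPM in scrambled control and at 28.7, 31.3 and 23.5 CPM in IFNγR1KO libraries, a log2 fold change of 2.30 (SE 0.21). With 43 to 67 counts per scrambled control library it had the largest relative spread of the 10 genes, a coefficient of variation of 23.3%, and also the largest standard error. Atf5 (ENSMUSG00000038539.15, chr7:44812256-44816658, minus strand), a factor controlled in translation like ATF4, was at 57.9, 64.2 and 63.7 CPM in scrambled control and at 245, 232 and 257 CPM in IFNγR1KO libraries. Its libraries lay close together within each group, and its log2 fold change was 1.98 (SE 0.13). Cebpb (ENSMUSG00000056501.3, chr2:167688915-167690418, plus strand) encodes C/EBPβ, a dimer partner of both ATF4 and CHOP. It was at 18.7, 25.9 and 26.8 CPM in scrambled control and at 65.8, 78.2 and 91.8 CPM in IFNγR1KO libraries, a log2 fold change of 1.72 (SE 0.18). Of its exonic bases, 20.7% lie under Tmem189 on the other strand, more than for any other member, and Tmem189 itself had means of 192 CPM (scrambled control) and 173 CPM (IFNγR1KO). Cebpg (ENSMUSG00000056216.9, chr7:35046422-35056573, minus strand) encodes C/EBPγ, a short family member that pairs with ATF4. It was the most even member in scrambled control, at 34.8, 33.7 and 34.5 CPM, and lay at 78.7, 75.6 and 75.1 CPM in IFNγR1KO libraries. Its log2 fold change of 1.15 (SE 0.13) was close to that of Atf4.

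The feedback genes were among those with the largest changes. Trib3 (ENSMUSG00000032715.9, chr2:152337422-152344032, minus strand) encodes the pseudokinase that binds ATF4 and CHOP and holds them back. It was at 38.0, 46.3 and 38.8 CPM in scrambled control and at 456, 455 and 467 CPM in IFNγR1KO libraries, a log2 fold change of 3.49 (SE 0.15). The 3 IFNγR1KO values were nearly alike, with a coefficient of variation of 1.44%, the lowest of the 10 genes in either group. Ppp1r15a (ENSMUSG00000040435.12, chr7:45522916-45526268, minus strand) encodes GADD34, the inducible subunit that restores translation by dephosphorylating eIF2α. It was at 14.9, 17.7 and 13.4 CPM in scrambled control and at 125, 123 and 130 CPM in IFNγR1KO libraries, a log2 fold change of 3.04 (SE 0.15). Both feedback genes thus had a ratio of nearest libraries well above that of Atf4, 9.84 for Trib3 and 6.96 for Ppp1r15a.

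The remaining members are products of the program that are not bZIP factors. Nupr1 (ENSMUSG00000030717.9, chr7:126623249-126630861, minus strand) had the largest change of the set. It was at 5.97, 8.06 and 5.22 CPM in scrambled control, from 54 to 81 counts per library, and at 131, 110 and 115 CPM in IFNγR1KO libraries. The log2 fold change was 4.21 (SE 0.18), and 4.07 to 4.40 without 1 library. Chac1 (ENSMUSG00000027313.3, chr2:119351229-119354381, plus strand) encodes an enzyme that cleaves glutathione in the cytosol. It was at 42.6, 47.4 and 38.8 CPM in scrambled control and at 214, 218 and 197 CPM in IFNγR1KO libraries, a log2 fold change of 2.29 (SE 0.14).

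**Figure D2:**
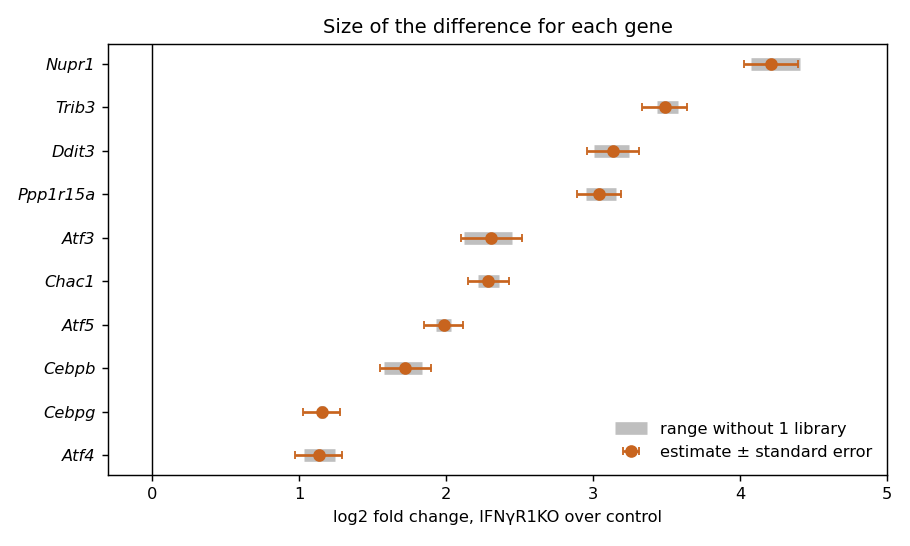
Log2 fold change of each gene, IFNγR1KO over scrambled control, with its standard error (orange point and bar) and the range of the estimates when 1 of the 6 libraries is left out (grey band). The genes run from Atf4 at 1.13 to Nupr1 at 4.21, and every grey band lies above 1.

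The libraries of a group did not all rank alike. In scrambled control, library 2 was the highest for 8 of the 10 genes and library 3 the lowest for 6. In IFNγR1KO cells no library stood above the others throughout: library 10 was the highest for 4 genes, library 11 for 2 and library 12 for 4, and library 12 was also the lowest for 5. IFNγR1KO library 12 had the lowest Atf4 and Ddit3 of its group together with the highest Trib3, Atf5, Cebpb and Ppp1r15a. Of the 10 genes, 4 lie on chromosome 7 (Atf5, Nupr1, Cebpg and Ppp1r15a) and 3 on chromosome 2 (Trib3, Chac1 and Cebpb).

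The make-up of the summed signal differed between the groups. Atf4 made up 64.1 ± 1.68% of the summed CPM of the 10 genes in scrambled control and 37.9 ± 1.19% in IFNγR1KO cells (SD, n = 3 each). Ddit3 went from 7.49 ± 0.562% to 17.7 ± 1.49%, and Trib3 from 5.02 ± 0.287% to 15.2 ± 0.989%. Nupr1 went from 0.778 ± 0.0821% to 3.92 ± 0.265%, and Ppp1r15a from 1.87 ± 0.0370% to 4.17 ± 0.324%. Each of these 4 genes took a larger share in every IFNγR1KO library than in any scrambled control library. Chac1 went from 5.26 ± 0.119% to 6.91 ± 0.227%, and Atf3 from 0.683 ± 0.0998% to 0.916 ± 0.107%. Cebpg was the other member whose share was lower by more than its SD, 4.24 ± 0.553% and then 2.53 ± 0.0782%, although its own level was higher. The shares of Atf5 (7.63 ± 0.969% and 8.09 ± 0.756%) and Cebpb (2.93 ± 0.682% and 2.61 ± 0.567%) moved by less than 1 SD.

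**Figure D3:**
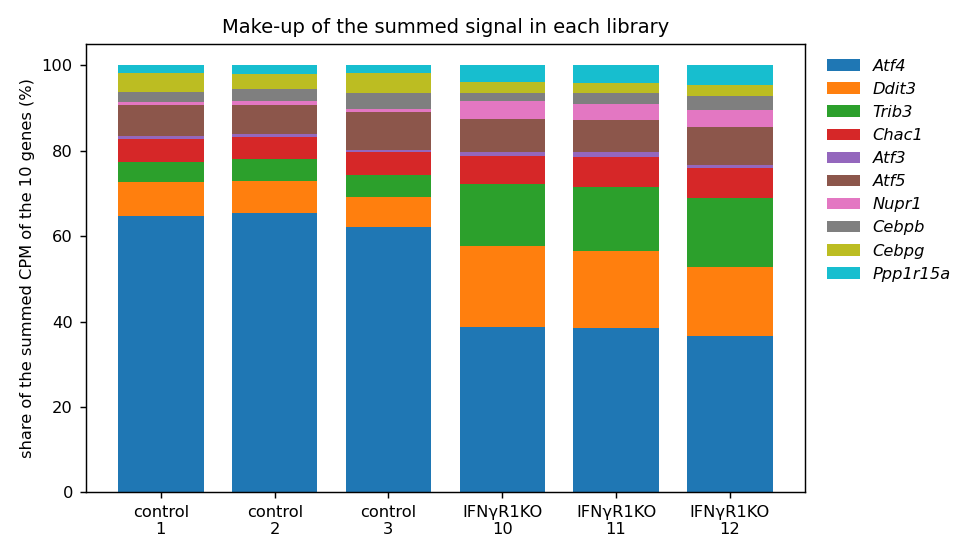
Share of each gene in the summed CPM of the 10 genes, in percent, for each of the 6 libraries. The blue block at the base, Atf4, averages 64.1% in the scrambled control libraries and 37.9% in the IFNγR1KO libraries, while the blocks of Ddit3 (orange) and Trib3 (green) are larger in all 3 IFNγR1KO libraries.

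Levels of different genes were compared per kilobase of merged exon. In scrambled control the order was Atf4 (223 ± 32.4 CPM per kilobase), Ddit3 (35.9 ± 6.07), Atf5 (31.1 ± 1.76), Chac1 (26.2 ± 2.61), Trib3 (19.3 ± 2.15), Cebpb (15.8 ± 2.95), Cebpg (6.11 ± 0.102), Ppp1r15a (5.22 ± 0.741), Atf3 (2.62 ± 0.610) and Nupr1 (2.55 ± 0.585; SD, n = 3 throughout). Ranges of neighbouring genes overlapped between Ddit3 and Atf5, between Cebpg and Ppp1r15a and between Atf3 and Nupr1. In IFNγR1KO cells Atf4 was still first, at 488 ± 39.2 CPM per kilobase, followed by Ddit3 (315 ± 42.3) and Trib3 (216 ± 3.12), which was at place 5 in scrambled control and at place 3 here. Chac1 (128 ± 6.53) and Atf5 (123 ± 6.46) came next, with overlapping ranges. Cebpb (52.2 ± 8.65), Nupr1 (47.2 ± 4.36) and Ppp1r15a (43.0 ± 1.26) formed a group in which each overlapped its neighbour. Cebpg (13.6 ± 0.350) and Atf3 (12.9 ± 1.85) were the lowest and also overlapped. In scrambled control the highest member was 87.3 times as high as the lowest per kilobase, and 99.3 times when the longest transcript was used as the length. The gap between Atf4 and Ddit3 also depends on the length used. Ddit3 has 1713 bases of merged exon and a longest transcript of 969, against 2358 and 2019 for Atf4. Per base of longest transcript, the ranges of Atf4 and Ddit3 overlapped in IFNγR1KO cells.

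**Figure D4:**
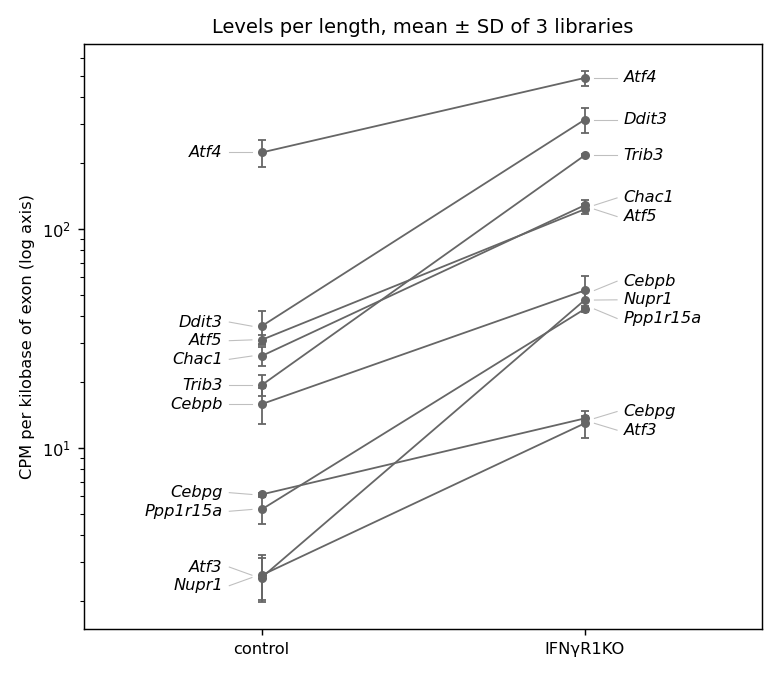
Level per kilobase of merged exon (log axis) of each gene in scrambled control (left) and IFNγR1KO cells (right), as the mean and SD of 3 libraries, joined by a line. The line of Trib3 crosses those of Atf5 and Chac1, and Nupr1 goes from the lowest level, 2.55, to 47.2 CPM per kilobase.

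Promoter sequences were read from RefSeq (GRCm38.p6), as 250 bases before to 50 bases after each annotated start. The rule that picked the genes did not use these sequences. The genes were gathered as members of the ATF4-CHOP program, however, so ATF4 elements among them are not independent evidence. All 10 genes had an entry, and the table held 32851 promoters of 27025 genes. The element bound by dimers of ATF4 and C/EBP proteins, searched as TGATGNAA on both strands, lay in the promoters of 4 of the 10 genes (Trib3, Chac1, Atf3 and Nupr1) and in 3.97% of all promoters (4.51% of all genes). The stricter TGATGCAA, which is contained in it, lay in 3 of the 10 genes and in 0.895% of all promoters (1.03% of all genes). The cyclic AMP response element TGACGTCA lay in 1 of the 10 (Ppp1r15a) and in 1.79% of all promoters (2.03% of all genes). A C/EBP site searched as TTGCGNAA lay in none of the 10 and in 0.798% of all promoters (0.918% of all genes). CCACG, a part of the endoplasmic reticulum stress element, lay in 7 of the 10 and in 32.8% of all promoters (35.5% of all genes). The matches to the stricter element and to the cyclic AMP response element follow here with their surroundings, each read from the strand of the gene, with the match in capitals. On that strand the ATF4 element reads TTGCATCA, the reverse complement of TGATGCAA, in all 3 genes.
Atf3, chr1:191183390-191183489, minus strand, upstream of the RefSeq start and in an intron of the longer gene model: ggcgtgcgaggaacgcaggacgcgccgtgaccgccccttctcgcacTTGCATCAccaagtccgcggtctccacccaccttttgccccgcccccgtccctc
Chac1, chr2:119351003-119351102, plus strand, upstream of the gene: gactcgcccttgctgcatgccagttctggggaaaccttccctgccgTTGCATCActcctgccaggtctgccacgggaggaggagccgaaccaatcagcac
Nupr1, chr7:126625562-126625591, minus strand, upstream of the RefSeq start and in a noncoding exon of a longer GENCODE transcript: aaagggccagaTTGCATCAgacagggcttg
Ppp1r15a, chr7:45526269-45526298, minus strand, directly upstream of the gene: gagaccccgcctctccggTGACGTCAgcac
The element began 110 bases upstream of the start in both Atf3 and Nupr1 and 193 bases upstream in Chac1. The match of Trib3, TTACATCA, lay 14 to 21 bases after its RefSeq start, and that of Ppp1r15a began 12 bases before its start. Of these 5 genes, Nupr1, Trib3 and Ppp1r15a had log2 fold changes over 3, and Chac1 and Atf3 had 2.29 and 2.30. Ddit3, with 3.13, held neither the ATF4 element nor the cyclic AMP response element in this window. A match is a run of letters, and binding was not measured here.

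The kinases and regulators that feed into ATF4 passed the test about as often as genes in general. The list held 12 genes, all tested, with a median log2 fold change of 0.07. In the edgeR quasi-likelihood fit over all genes, 1 was higher and 1 lower at an adjusted p under 0.05, where 7.73% of all tested genes were higher and 7.62% lower. Scaled by library totals alone, the genes past that limit were split differently over the whole table, 1174 higher and 755 lower in place of 1054 and 1039. Eif2ak3, which encodes PERK, the sensor in the endoplasmic reticulum, was at 40.7, 44.0 and 56.4 CPM in scrambled control and at 66.5, 60.8 and 75.5 CPM in IFNγR1KO libraries. Its groups did not overlap (log2 fold change 0.52, SE 0.16, adjusted p = 0.0400). Eif2ak2, which encodes PKR, the sensor of double-stranded RNA and an interferon-stimulated gene, went the other way. It was at 21.8, 20.8 and 24.8 CPM in scrambled control and at 13.9, 14.6 and 17.4 CPM in IFNγR1KO libraries, a log2 fold change of -0.55 (SE 0.16, adjusted p = 0.0376). Each of these calls held in 6 of 12 alternative analyses, and that for Eif2ak3 was lost with thinning to the smallest library (0.49) and that for Eif2ak2 with library totals only (-0.50). It was lost for Eif2ak3 without any one of scrambled control libraries 1 or 2 or IFNγR1KO libraries 10, 11 or 12 (log2 fold changes of 0.43, 0.47, 0.53, 0.61 and 0.43). It was lost for Eif2ak2 without any one of scrambled control libraries 1, 2 or 3 or IFNγR1KO libraries 10 or 11 (-0.58, -0.61, -0.48, -0.49 and -0.50). Eif2ak1 (HRI, the sensor of heme) had a log2 difference of -0.21 (SE 0.12, adjusted p = 0.311) and Eif2ak4 (GCN2, the sensor of uncharged transfer RNA) one of 0.06 (SE 0.15, adjusted p = 0.828). Ppp1r15b, the constitutive counterpart of Ppp1r15a, was at 118 ± 16.5 and 133 ± 5.55 CPM (SD, n = 3 each), a log2 difference of 0.17 with a 95% interval of -0.13 to 0.48. The transcript of eIF2α itself (Eif2s1) was at 357 ± 71.3 and 334 ± 73.9 CPM.

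Genes known as ATF4 targets, most of them for amino acid metabolism, transport and transfer RNA charging, were higher in IFNγR1KO cells. The list also held others, among them Sesn2, Ddit4, Eif4ebp1 and Vegfa. Of 36 listed genes 31 were tested, with a median log2 fold change of 1.09. Of these, 30 rose and none fell, where 7.73% of all tested genes were higher and 7.62% lower. Of the 30, 20 had a log2 fold change over 1, where 3.25% of all tested genes were higher by both limits. Like the other lists, this one was drawn up with earlier results of these data known and is not independent evidence of its direction. Slc1a4, a transporter of neutral amino acids, was at 35.0, 32.1 and 31.2 CPM in scrambled control and at 126, 129 and 134 CPM in IFNγR1KO libraries, a log2 fold change of 1.99 (SE 0.13, adjusted p = 1.80e-06 by the same test). Pck2, the mitochondrial phosphoenolpyruvate carboxykinase, rose by 2.02 (SE 0.13, adjusted p = 1.85e-06). Pycr1, an enzyme of proline synthesis, went from 2.82, 2.89 and 2.71 CPM to 19.3, 15.99 and 19.96 CPM, a log2 fold change of 2.71 (SE 0.20, adjusted p = 5.17e-06). Asns, asparagine synthetase and the classic gene with an amino acid response element, rose from 120 ± 7.68 to 370 ± 13.9 CPM (SD, n = 3 each), by 1.63 (SE 0.13, adjusted p = 1.12e-05). The tested gene that did not pass was Sqstm1, named after its value was seen, at 1584 ± 234 and 2197 ± 151 CPM (adjusted p = 0.0765). Fgf21, a stress hormone also named after its values were seen, was too low for the filter. It had 0 counts in each scrambled control library and 14, 9 and 7 in the IFNγR1KO libraries. Its IFNγR1KO mean, 1.40 ± 0.526 CPM (SD, n = 3), was 4.59 times a floor of 3 counts in each scrambled control library. Stc2 had 0 counts throughout, and Cbs, Vldlr and Gdf15 were also below the filter. A RefSeq promoter was found for 30 of the 36 listed targets, tested or not, which are not the same 30 as those that rose. Of these, 10 held TGATGNAA and 7 held TGATGCAA, where 4.51% and 1.03% of all genes did. Vldlr and Fgf21, both below the filter, were among the matches to each.

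Genes linked to CHOP in cell death and redox control moved in both directions. Of 7 listed genes 6 were tested, with a median log2 fold change of -0.17. Of these, 2 were higher, 1 was lower and 3 did not pass, where 7.73% of all tested genes were higher and 7.62% lower. Ero1l, an oxidase of the endoplasmic reticulum, went from 216, 201 and 224 CPM to 373, 349 and 390 CPM (log2 fold change 0.80, SE 0.13, adjusted p = 0.00203). Bbc3, which encodes the death protein PUMA, went from 9.44, 9.25 and 6.96 CPM to 19.0, 18.02 and 15.2 CPM (1.03, SE 0.19, adjusted p = 0.00329). These passed in all 12 alternatives. Car6, a carbonic anhydrase gene with a transcript started by CHOP, fell by 0.58 in log2 fold change (SE 0.14, adjusted p = 0.0159), a call that was lost without scrambled control library 2 or IFNγR1KO library 10 or 11 (-0.50, -0.58 and -0.61). Of other CHOP-linked death genes, Bcl2l11 (BIM) was at 3.60 ± 0.482 and 2.29 ± 0.708 CPM (adjusted p = 0.174), Tnfrsf10b (DR5) at 8.02 ± 1.19 and 6.82 ± 0.219 CPM (adjusted p = 0.503), and Bcl2, which CHOP is known to repress, at 24.4 ± 2.52 and 22.5 ± 2.53 CPM (adjusted p = 0.694). Pmaip1 (NOXA) had 0 counts in all 6 libraries.

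Paralogs of the 10 genes were looked up by symbol. Of 9 paralogs, 6 were tested, 1 was higher and none was lower, where 7.73% and 7.62% of all tested genes were, with a median log2 fold change of 0.09. Trib1, a pseudokinase like TRIB3, was at 11.2, 10.5 and 12.4 CPM in scrambled control and at 6.54, 9.08 and 11.4 CPM in IFNγR1KO libraries (log2 difference -0.34, 95% interval -0.80 to 0.13, adjusted p = 0.335). Trib2 was at 3.37 ± 0.317 and 3.11 ± 0.158 CPM (log2 difference -0.11, 95% interval -0.67 to 0.44). Chac2, the second glutathione-cleaving enzyme of the family, was at 11.5 ± 3.31 and 11.5 ± 3.91 CPM, with a 95% interval of the log2 difference of -0.58 to 0.58, and the sign of its difference turned with the scaling (0.046 with library totals only). Cebpd was at 7.59 ± 1.59 and 8.78 ± 1.10 CPM (log2 difference 0.21, 95% interval -0.26 to 0.67). Jdp2, a relative of Atf3, was the paralog that rose, from 62.8 ± 11.0 to 98.1 ± 13.3 CPM (0.64, SE 0.16, adjusted p = 0.0180), and its call was lost without scrambled control library 1 or IFNγR1KO library 11 (0.53 and 0.67). Cebpa, Cebpe and Nupr1l were below the filter.

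Among 40 other bZIP genes, 32 were tested, with a median log2 fold change of 0.15. Of these, 7 were higher and 4 lower, where 7.73% of all tested genes were higher and 7.62% lower. The number higher was 4 without scrambled control library 1 or IFNγR1KO library 11, and the number lower was 2 with thinning to the smallest library or without IFNγR1KO library 11. The lists share genes. Of those higher here, Jdp2 was also counted among the paralogs, and Atf6 and Xbp1 also among the ATF6 and XBP1 branches below. Nfil3 rose by 1.83 (SE 0.15, adjusted p = 1.17e-05), from 9.44, 11.6 and 10.9 CPM to 38.1, 37.0 and 39.4 CPM. Atf6, the sensor of another branch of the unfolded protein response, rose by 1.33 (SE 0.14, adjusted p = 7.12e-05), and Nfe2l1 by 1.23 (SE 0.17, adjusted p = 0.000577). Batf fell by 1.31 (SE 0.22, adjusted p = 0.00203), from 16.7, 15.02 and 11.2 CPM to 6.82, 5.69 and 4.78 CPM. Batf3 also fell by 1.31 (SE 0.29, adjusted p = 0.00964) and Tef, a circadian output factor, by 0.68 (SE 0.14, adjusted p = 0.00741). The call for Tef was lost without IFNγR1KO library 11 (-0.64), and that for Batf3 with thinning to the smallest library (-1.01).

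The ATF6 and XBP1 branches, the other arms of the unfolded protein response, supply chaperones and degradation factors to the endoplasmic reticulum. All 21 listed genes were tested, with a median log2 fold change of 0.52. Of these, 12 were higher and none lower, where 7.73% of all tested genes were higher and 7.62% lower. Without scrambled control library 2 the number higher was 7. Herpud1, a degradation factor also known as an ATF4 target, had the largest change, from 141, 158 and 121 CPM to 712, 584 and 534 CPM (2.12, SE 0.17, adjusted p = 8.68e-06). Sel1l, of the same degradation complex, rose by 1.33 (SE 0.16, adjusted p = 0.000218). Hspa5, the chaperone BiP, went from 2878, 2532 and 2294 CPM to 6186, 4759 and 3844 CPM (0.94, SE 0.20, adjusted p = 0.00808), and its call was lost without scrambled control library 2 (0.93). Xbp1 differed by 0.49 (SE 0.13, adjusted p = 0.0249), a call that held in 7 of 12 alternatives and was lost without scrambled control library 1, 2 or 3 or IFNγR1KO library 10 or 11 (0.49, 0.53, 0.46, 0.44 and 0.54). Like Atf4 and Ddit3, Hspa5 and Herpud1 were highest in library 10 and lowest in library 12 of the IFNγR1KO group. This order was not particular to stress genes. The melanocyte markers Dct, Tyr and Mlana had it too, while Mitf, Sox10, Pmel and Tyrp1 did not.

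Genes of the immediate early and heat shock responses, which respond to handling and to unfolded protein in the cytosol, were looked up because Atf3 and Ppp1r15a can also respond quickly. Of 10 listed genes 9 were tested, with a median log2 fold change of -0.12. Of these, none was higher and 3 were lower, where 7.73% of all tested genes were higher and 7.62% lower. Hspa8, the constitutive cytosolic chaperone, fell by 1.08 (SE 0.16, adjusted p = 0.000894), from 2759, 2615 and 2470 CPM to 1256, 1342 and 1124 CPM. Hsph1 fell by 1.16 (SE 0.19, adjusted p = 0.00153), and Dnajb1 by 0.62 (SE 0.14, adjusted p = 0.0118), a call lost without scrambled control library 2 (-0.58). The early genes Fos (3.30 ± 1.03 and 2.92 ± 0.764 CPM), Egr1 (1.90 ± 0.558 and 1.85 ± 0.532 CPM) and Ier2 (29.7 ± 4.46 and 31.3 ± 3.83 CPM) did not pass the test.

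**Figure D5:**
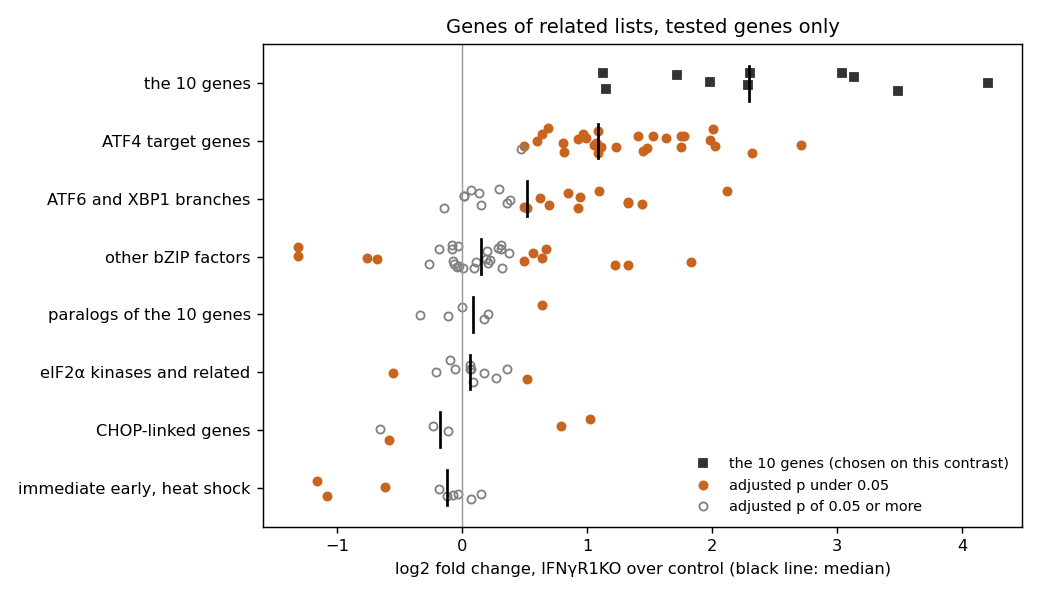
Log2 fold change, IFNγR1KO over scrambled control, of the tested genes of each list, with the median of the list as a black line. Dark squares are the 10 genes, chosen on this contrast (median 2.30), filled orange circles are other genes with an adjusted p under 0.05, and open circles are genes that did not pass. The ATF4 target genes lie to the right, with a median of 1.09, while paralogs, eIF2α kinases with related regulators (12 genes) and CHOP-linked genes have medians of 0.09, 0.07 and -0.17.

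The genes whose pattern over the 6 libraries was most like that of Atf4 were sought among 11051 genes with a mean of at least 5 CPM. Members of the set were left out of this search, so a member may lie closer than the genes named here. Likeness was the root mean square difference of log2 levels after the scrambled control mean of each gene was set to 0. The 3 closest to Atf4 were Iah1 (0.0465), Nat9 (0.0871) and Nudt18 (0.0946). Iah1 was at 28.0 ± 5.50 and 61.1 ± 5.09 CPM (SD, n = 3 each), and 11.8% of its exonic bases lie under Adam17 on the other strand. The 3 non-member genes closest to Ddit3 were Cyb5r2 (0.184), E230016M11Rik (0.206) and Masp1 (0.238). None of these matched it as closely as Iah1 matched Atf4. The measure includes the difference between the groups, on which the members were chosen. Few genes differ as much as Ddit3, since the 99th percentile of log2 fold changes over all tested genes was 1.68. Nothing is therefore read from the closer match of Atf4. Masp1 was at 3.68 ± 0.253 and 39.8 ± 1.28 CPM. E230016M11Rik shares 8.77% of its exonic bases with Gadd45a on the other strand, and its counts may include reads of that gene, whose means were 11.9 CPM (scrambled control) and 88.3 CPM (IFNγR1KO).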

How the data were processed

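RNA of 3 scrambled control and 3 IFNγR1KO cultures was sequenced. Per the labels, libraries were made with a SMARTER mRNA-Seq kit, and per the submitters' processing notes STAR 2.7.5a, HTSeq 0.11.2 and DESeq2 1.34.0 were used with GRCm38. The authors deposited raw counts per gene, 1 table per library. The annotation release and strand setting of the counting are not given in the sources used here, so reads of genes that overlap on opposite strands may not be separated. Rows that name no gene (no feature, 46.9% to 47.7% of the counts on genes and these rows, multiple alignment, 3.76% to 4.61%, and ambiguous, 1.57% to 1.85%) were left out.

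Symbols came from GENCODE M21, which held 55154 of 55335 identifiers. In R 4.3.3, edgeR 4.0.16 was used: filterByExpr (minimum count 10, minimum total 15), TMM and the quasi-likelihood test, with p-values adjusted by Benjamini-Hochberg over 13642 genes. DESeq2 1.42.0, limma-voom 3.58.1, other scalings, no filter, thinning and leaving out each library were alternatives. The tests were tested on simulated counts. The members and lists were chosen with earlier results of these data known. All members are named, every gene of lists of at most 12 may be, and in longer lists the 3 with the smallest adjusted p per direction plus set pathway genes. A planned comparison of protein sequences was not run. One gene of the marker lists is not reported here. By alignment to all M21 transcripts, Cebpg shared stretches of up to 170 bases, at 90.0% to 92.5% identity, with other genes, and Cebpb shared 320 bases with Tmem189.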

Additional observations from a re-analysis of the deposited data

How the results depend on the processing

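No paired analysis was possible because the replicate numbers of the groups (1 to 3 and 10 to 12) do not overlap. All 10 members kept their direction and their side of the thresholds with DESeq2, limma-voom, other scalings, no filter, thinning, an adjusted p under 0.01 and without any 1 library. Against a log2 fold change of 1 by glmTreat the count was 8, as Atf4 and Cebpg did not pass. These counts describe the contrast on which the members were chosen. With library totals only, no ISR input gene was lower (0) and Chac2 differed by 0.046 in place of -0.0011. With thinning to the smallest library, 0 ISR input genes were higher and 2 other bZIP genes were lower. Leaving out 1 library at a time gave these ranges: 0 to 1 for ISR inputs, higher, 0 to 1 for ISR inputs, lower, 0 to 1 for paralogs, higher, 4 to 7 for other bZIP factors, higher, -0.23 to 0.076 for Eif2s1, -0.16 to 0.045 for Impact, -0.31 to 0.19 for Chac2, 0 to 1 for CHOP-linked death and redox, lower, 7 to 13 for ATF6 and XBP1 branches, higher, -0.082 to 0.23 for Oma1, -0.048 to 0.19 for Ppp1ca, 2 to 4 for other bZIP factors, lower, 6 to 11 for paralogs and partners past the test, -0.013 to 0.13 for Eif2ak4 and -0.031 to 0.14 for Dele1. The cause of these changes was not tested, beyond the smaller number of samples. Over all genes, the count of higher genes ran from 535 without scrambled control library 2 to 1372 without IFNγR1KO library 12, where 1054 passed with all libraries, and that of lower genes from 457 to 1452, where 1039 passed. Low counts limit Atf3 and Nupr1 in scrambled control most.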
